A study of Sus scrofa with 9 samples.

Results

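The cytokine genes of T cells were examined on microarrays of sorted pig blood lymphocytes. They were 8 genes, namely IFNG, TNF, LTA, IL2, IL4, IL5, IL10 and TGFB1. A probe was taken as belonging to one of them when the sequence accession printed for it in the array files, without its version number, is that pig gene's in the annotation of the assembly Sscrofa11.1. This gave 13 probes, out of 6730 probes for 3052 genes that could be named in this way and 43603 probes in all. IFNG, IL2 and IL4 had 1 probe each, and TNF, LTA, IL5, IL10 and TGFB1 had 2 each. Probes whose printed identifiers are of another kind were not named here, so further probes of these genes may be among them.

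The 3 fractions of blood T cells from sows were sorted from mononuclear cells. CD3+CD4+CD8+ cells are called DP, CD3+CD4+ cells the CD4 fraction and CD3+CD8+ cells the CD8 fraction, with 3 arrays each (n = 3). The labels name no stimulation of the cells, no genotype or treatment, and neither the age nor the number of the sows, and they describe the arrays of a fraction as biological replicates. Where nothing ties an array to an animal, p-values measure only the spread between these arrays.

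Cytokines are the secreted proteins through which T cells instruct other cells. In the textbook scheme, type 1 helper cells and cytotoxic T cells make interferon gamma and tumour necrosis factor, type 2 helper cells make interleukins 4 and 5, and regulatory cells make interleukin 10 and transforming growth factor beta. Most of these genes are nearly silent in resting T cells and are switched on for hours after the T cell receptor is engaged, whereas memory and effector cells may hold some of their messengers ready. In pigs, many blood T cells with CD4 and CD8 alpha together on their surface are regarded as memory or effector helper cells.

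Levels are given as log2 of the processed signal relative to the 75th percentile of the signal on the same array, so that 0 is a probe brighter than 75% of the probes and a step of 1 is a doubling. The percentile itself was a signal between 19.0 and 42.5 in DP, between 15.2 and 84.1 in the CD4 fraction and between 18.4 and 29.7 in CD8 cells. The scanner software flags each spot as well above background or not, and 32.6% to 53.7% of the probes carried that flag on an array. The sorting markers followed the labels: CD4 stood at a mean of 2.14 in DP, 1.92 in the CD4 and -2.04 in the CD8 fraction, and CD8A at 3.47, 0.27 and 5.35 in the same order, while CD3D, CD3E, CD3G and CD247 were well above background on all 9 arrays.

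Of the 13 cytokine probes, 4 were well above background on all 9 arrays, 7 on some and 2 on none. The 4 were both probes of TNF and both of TGFB1, and the 2 were those of IL2 and IL4. A probe entered the tests if some fraction had it well above background on each of its 3 arrays, and 7 probes of 5 genes met this. IFNG passed through DP and the CD8 fraction, IL5 through the CD8 fraction alone and IL10 through DP alone, so for these 3 genes the filter itself favoured a difference. No cytokine probe was saturated. The plot of all 13 probes by array shows every DP array above every CD4 array for IFNG and TNF, and TGFB1 with overlapping fractions. Most interleukin values lay near or under the detection limit. The first IL10 probe was well over it on DP arrays 2 and 3, at -0.10 and 1.21 against limits of -2.26 and -1.47.

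**Figure D1:**
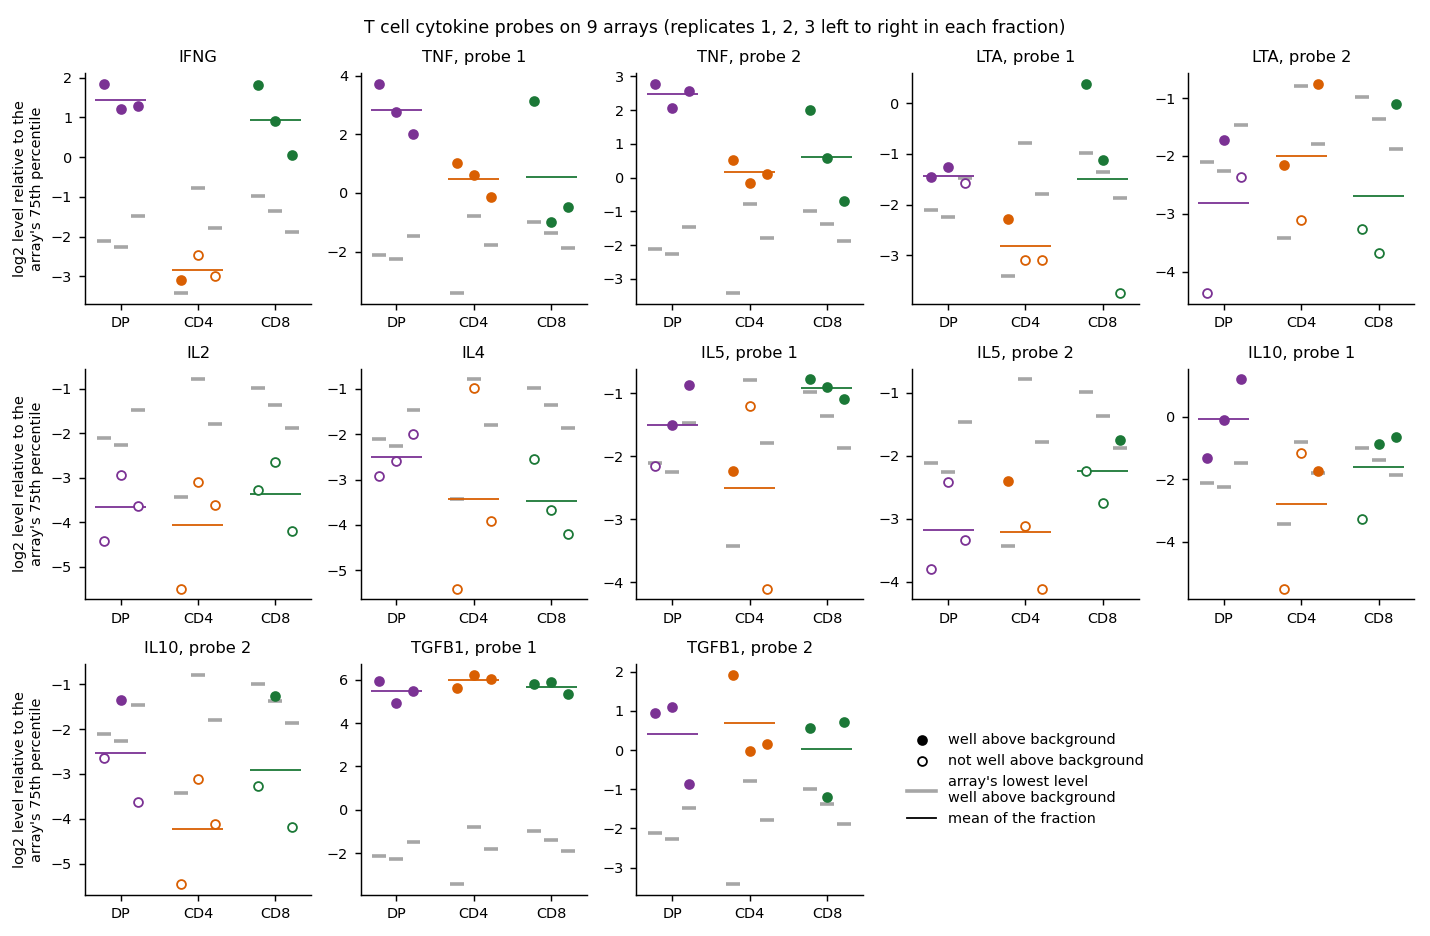
Each panel is 1 probe and each point 1 array, with replicates 1, 2 and 3 from left to right in DP, the CD4 fraction and the CD8 fraction, and the y axis is the log2 level relative to the array's 75th percentile. Filled points were well above background, the coloured line is the mean of the fraction, and the grey bar is the lowest level that any probe well above background had on that array; IL2 and IL4 have no filled point.

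Among the type 1 cytokines, IFNG, which encodes the macrophage-activating interferon gamma, was 19.6-fold higher in DP than in the CD4 fraction and 13.6-fold lower in the CD4 fraction than in the CD8 fraction. The probe was not well above background on 2 of the 3 CD4 arrays, and with dim values raised to each array's detection limit these folds were 10.1 and 7.03, the second no longer passing the test. Its levels were 1.85, 1.21 and 1.28 on DP arrays 1, 2 and 3, against -3.09, -2.45 and -2.99 on the CD4 and 1.81, 0.91 and 0.05 on the CD8 arrays. Every DP array and every CD8 array lay above every CD4 array, and DP and the CD8 fraction overlapped. As processed signals these were 143, 98.7 and 46.0 in DP, against 9.88, 2.78 and 3.62 in the CD4 and 64.7, 45.5 and 30.8 in the CD8 fraction. The probe was well above background on 3 of 3 DP arrays, 1 of 3 CD4 arrays and 3 of 3 CD8 arrays. Over all tested probes, 10.1% did not overlap between DP and the CD4 fraction and 8.01% between the CD4 and CD8 fractions.

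The one CD4 array on which IFNG was detected was array 1, and it gave the lowest of the 3 CD4 levels. That array was the brightest of the study, with a 75th percentile of 84.1, and its lowest level well above background was -3.42. The corresponding limits of CD4 arrays 2 and 3 were -0.79 and -1.79, so a level of -3.09 lay under them. The IFNG difference to the CD4 fraction therefore rests partly on signals near background.

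IFNG averaged 1.45 ± 0.35 in DP and -2.84 ± 0.34 in the CD4 fraction (SD, n = 3 each), a log2 difference of 4.29 (SE 0.52, 95% interval 3.16 to 5.42, limma adjusted p = 0.00589). It was the one cytokine probe of the 7 tested that passed in this comparison, in which 0.293% of all 16024 tested probes passed and 0.225% passed as higher in DP. In the CD8 fraction IFNG averaged 0.93 ± 0.88 (SD, n = 3), and the CD4 minus CD8 difference was -3.77 (SE 0.52, 95% interval -4.90 to -2.64, limma adjusted p = 0.00661). It was again the one of 7 that passed, against 0.437% of all tested probes and 0.325% called as lower in the CD4 fraction. Between DP and the CD8 fraction, where 0 of the 7 cytokine probes and 0.312% of all tested probes passed, IFNG differed by 0.52 (95% interval -0.61 to 1.65, limma adjusted p = 1.00). The fractions were bulk samples, and fewer cells that express a gene cannot be told apart from less RNA of it per cell.

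Arrays of different fractions shared slides 2 and 3, and DP array 1 was alone on slide 1. Within slide 2 the IFNG difference between DP and the CD4 fraction was 3.67, and within slide 3 it was 4.32. With a slide block, under which DP array 1 no longer counts towards the difference, it was 3.98 but did not pass (limma adjusted p = 0.120). Leaving out DP array 1 gave 4.09 (limma adjusted p = 0.0514). The CD4 minus CD8 difference was -3.81 within slide 2, -3.10 within slide 3 and -3.55 with the slide block (limma adjusted p = 0.0280). Between DP and the CD8 fraction the sign differed by slide, with -0.15 on slide 2 and 1.22 on slide 3.

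When every value not well above background was raised to the lowest detected level of its array, IFNG was still 10.1-fold higher in DP than in the CD4 fraction (3.34, limma adjusted p = 0.0460). The CD4 minus CD8 difference then shrank to -2.81, a 7.03-fold difference that did not pass (limma adjusted p = 0.0997). With another background correction, normexp with an offset of 50 signal units, the differences shrank to 1.31 (limma adjusted p = 0.205) and -0.95 (limma adjusted p = 0.428), and neither passed. The 9 IFNG signals lay between 2.78 and 143. The direction of both differences was the same under each of the 20 alternatives in which IFNG could be fitted. The call held in 17 of them for DP against the CD4 fraction and in 18 for the CD4 fraction against the CD8 fraction. Some alternatives could change only the test and not the difference, namely no filter, no variance trend and the replicate blocks. The same held for leaving out an array of the fraction not compared, and for averaging a gene's probes, as IFNG had 1 probe.

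TNF encodes tumour necrosis factor, an inflammatory cytokine that activates endothelium and phagocytes and that T cells release together with interferon gamma. Its first probe stood at 3.73, 2.76 and 2.02 on DP arrays 1, 2 and 3, against 1.01, 0.60 and -0.14 on the CD4 and 3.15, -1.00 and -0.48 on the CD8 arrays. DP lay above the CD4 fraction without overlap, and CD8 array 1 stood far above the other CD8 arrays, inside the DP range. The second probe stood at 2.79, 2.06 and 2.56 in DP, against 0.52, -0.15 and 0.11 in the CD4 and 2.00, 0.58 and -0.70 in the CD8 fraction. By this probe DP lay above both other fractions without overlap, which 10.1% of all tested probes did in either direction against the CD4 fraction and 9.79% against the CD8 fraction.

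No TNF difference passed the test. The first probe gave 2.35 between DP and the CD4 fraction (SE 0.88, 95% interval 0.45 to 4.25, limma adjusted p = 0.651), and the second gave 2.31 (SE 0.59, 95% interval 1.04 to 3.58, limma adjusted p = 0.177). As folds these are 5.08 and 4.96, and the mean of the 2 probes, an alternative added after seeing the data, was 5.02-fold higher in DP (limma adjusted p = 0.389). Before adjustment over all probes the second probe's limma p was 0.00178, and 4.84% of all tested probes had an unadjusted p under 0.05. The slide block gave 1.76 and 2.08 for the 2 probes, and the values were 2.16 and 2.21 within slide 2 and 1.58 and 2.25 within slide 3.

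Between DP and the CD8 fraction the 2 TNF probes gave 2.28 (95% interval 0.38 to 4.17, limma adjusted p = 0.615) and 1.85 (95% interval 0.57 to 3.12, limma adjusted p = 0.409). This difference turned on CD8 array 1. Without that array the first probe gave 3.57 (limma adjusted p = 0.0463) and passed, while the second gave 2.53 and did not. Between the CD4 and CD8 fractions the probes gave -0.07 (95% interval -1.97 to 1.83) and -0.46 (95% interval -1.74 to 0.81), neither passing. In each fraction array 1 had the highest TNF by both probes, and those 3 arrays lay on 3 different slides. The 2 TNF probes followed each other over the 9 arrays with a Pearson r of 0.87, a description over arrays that share fractions and slides.

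LTA, which encodes lymphotoxin alpha, a close relative of tumour necrosis factor, lies directly beside TNF in the pig annotation with 0 protein-coding genes between them. Neither of its probes met the filter. The first stood at -1.45, -1.27 and -1.57 in DP, against -2.29, -3.11 and -3.09 in the CD4 and 0.39, -1.12 and -3.75 in the CD8 fraction. By these values DP and the CD4 fraction did not overlap, as for 10.1% of all tested probes, and the CD8 arrays spanned both. However, the probe was not well above background on DP array 3 and on CD4 arrays 2 and 3. The detection limit of CD4 array 2, at -0.79, lay above every DP level, so the lack of overlap was not established. This probe was well above background on 2 of 3 DP arrays, 1 of 3 CD4 arrays and 2 of 3 CD8 arrays. In a fit of all 43603 probes it gave 1.40 between DP and the CD4 fraction (SE 0.85, limma adjusted p = 1.00). The second LTA probe was well above background on 1 DP array, 2 CD4 arrays and 1 CD8 array, at levels of -1.72 on DP array 2, -2.16 and -0.75 on CD4 arrays 1 and 3 and -1.11 on CD8 array 3, and so did not show the same arrays as high.

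IL2, the T cell growth factor made on activation, was not well above background on any array. Its processed signals lay between 1.53 and 5.54 in DP, between 1.77 and 2.36 in the CD4 fraction and between 1.63 and 3.85 in CD8 cells. No fold is given where all fractions are below detection. At this signal over background a difference between the fractions was not detectable.

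**Figure D2:**
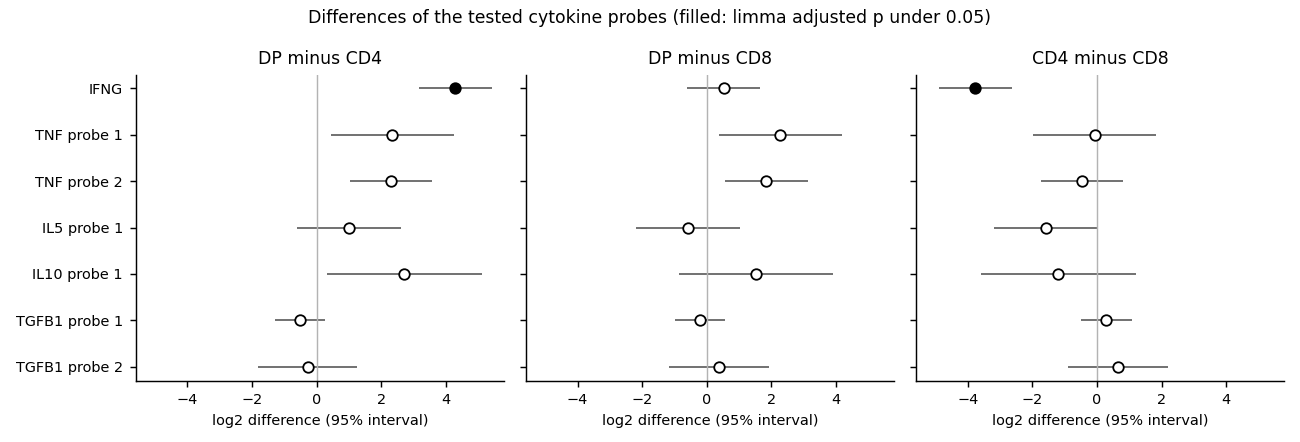
Points are the log2 differences of the 7 tested cytokine probes with their 95% intervals (x axis) in the 3 comparisons, and filled points passed at a limma adjusted p under 0.05. Only IFNG is filled, at 4.29 in DP minus CD4 and at -3.77 in CD4 minus CD8; the intervals of both TNF probes lie above 0 in both DP comparisons without passing.

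The type 2 cytokines IL4 and IL5 lie close together in the pig annotation, with RAD50, KIF3A and IL13 between them. IL4, the cytokine that steers B cells and helper cells to type 2 responses, was not well above background on any array, with signals of 4.78 to 7.04 in DP, 1.92 to 7.68 in the CD4 and 1.63 to 3.16 in the CD8 fraction. IL13, a further type 2 cytokine, was named on the array but likewise did not meet the filter.

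IL5, the growth factor of eosinophils, was well above background by its first probe on 2 of 3 DP arrays, 1 of 3 CD4 arrays and 3 of 3 CD8 arrays. The levels were -2.16, -1.51 and -0.87 on DP arrays 1, 2 and 3, against -2.23, -1.21 and -4.11 on the CD4 and -0.78, -0.90 and -1.09 on the CD8 arrays. The CD8 arrays lay close together and above every CD4 array, while DP overlapped with both. Between the CD4 and CD8 fractions 8.01% of all tested probes did not overlap. The CD4 minus CD8 difference was -1.59 (95% interval -3.19 to 0.01, limma adjusted p = 1.00), the DP minus CD4 difference 1.00 (95% interval -0.60 to 2.60) and the DP minus CD8 difference -0.59 (95% interval -2.19 to 1.01), and none passed. With values below detection raised to the floor of their arrays, these 3 shrank to -0.68, 0.11 and -0.57. The second IL5 probe was well above background on CD4 array 1 and CD8 array 3 alone, at -2.40 and -1.76.

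IL10 encodes interleukin 10, which damps antigen presentation and inflammatory cytokine release. Its first probe was well above background on all 3 DP arrays, 1 of 3 CD4 arrays and 2 of 3 CD8 arrays. The levels were -1.32, -0.10 and 1.21 on DP arrays 1, 2 and 3, against -5.50, -1.14 and -1.72 on the CD4 and -3.27, -0.87 and -0.64 on the CD8 arrays. DP array 3 was the highest of all 9, DP array 1 lay inside the range of both other fractions, and array 1 was the lowest in each fraction. On CD4 array 1 and CD8 array 1 the probe was not well above background, with signals of 1.86 and 1.91. The detection limit of CD8 array 1, at -0.99, lay under the detected levels of CD8 arrays 2 and 3. That of CD4 array 1, at -3.42, lay under the detected level of CD4 array 3. CD4 array 2 was not well above background either, with a limit of -0.79, so its place in the order was not measured. IL10 averaged -0.07 ± 1.26 in DP and -2.79 ± 2.37 in the CD4 fraction (SD, n = 3 each), a difference of 2.72 (SE 1.11, 95% interval 0.32 to 5.12, limma adjusted p = 0.799), and with floored values 1.91. Against the CD8 fraction DP differed by 1.52 (95% interval -0.87 to 3.92, limma adjusted p = 0.986), and with floored values by 0.76. Within slides 2 and 3 the DP minus CD4 differences were 1.05 and 4.82. The second IL10 probe was well above background on DP array 2 and CD8 array 2 alone, at -1.35 and -1.26.

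TGFB1, which encodes transforming growth factor beta 1, a suppressor of T cell division that is made as a latent protein and released by integrins, was well above background on all 9 arrays by both probes. Its first probe stood at 5.93, 4.93 and 5.49 in DP, against 5.63, 6.22 and 6.03 in the CD4 and 5.79, 5.88 and 5.34 in the CD8 fraction. All 3 fractions overlapped. The differences were -0.51 for DP minus CD4 (95% interval -1.28 to 0.27), -0.22 for DP minus CD8 (95% interval -0.99 to 0.56) and 0.29 for CD4 minus CD8 (95% interval -0.48 to 1.07), with limma adjusted p = 1.00 in each. These intervals leave room for less change than those of any other tested cytokine probe, and a change of the size of IFNG's lies outside them.

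The second TGFB1 probe stood at 0.95, 1.11 and -0.86 in DP, against 1.92, -0.03 and 0.16 in the CD4 and 0.57, -1.20 and 0.72 in the CD8 fraction. The fractions overlapped here too, and the differences of -0.28, 0.37 and 0.65 in the same order did not pass. The 2 probes did not follow each other over the arrays, with a Pearson r of -0.31 over the 9 arrays, so the array-to-array order of TGFB1 depends on the probe.

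IFNG and TNF were set side by side, since both were highest on average in DP. Over the 9 arrays IFNG followed the 2 TNF probes with a Pearson r of 0.54 and 0.70, as a description. CD8 arrays 2 and 3 had IFNG above all CD4 arrays while their TNF levels by the first probe were below those of all CD4 arrays, which was not so for CD8 array 2 by the second probe. The DP minus CD8 and CD4 minus CD8 comparisons share the CD8 arrays, and the DP comparisons share the DP arrays, so their values for a gene are not independent.

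**Figure D3:**
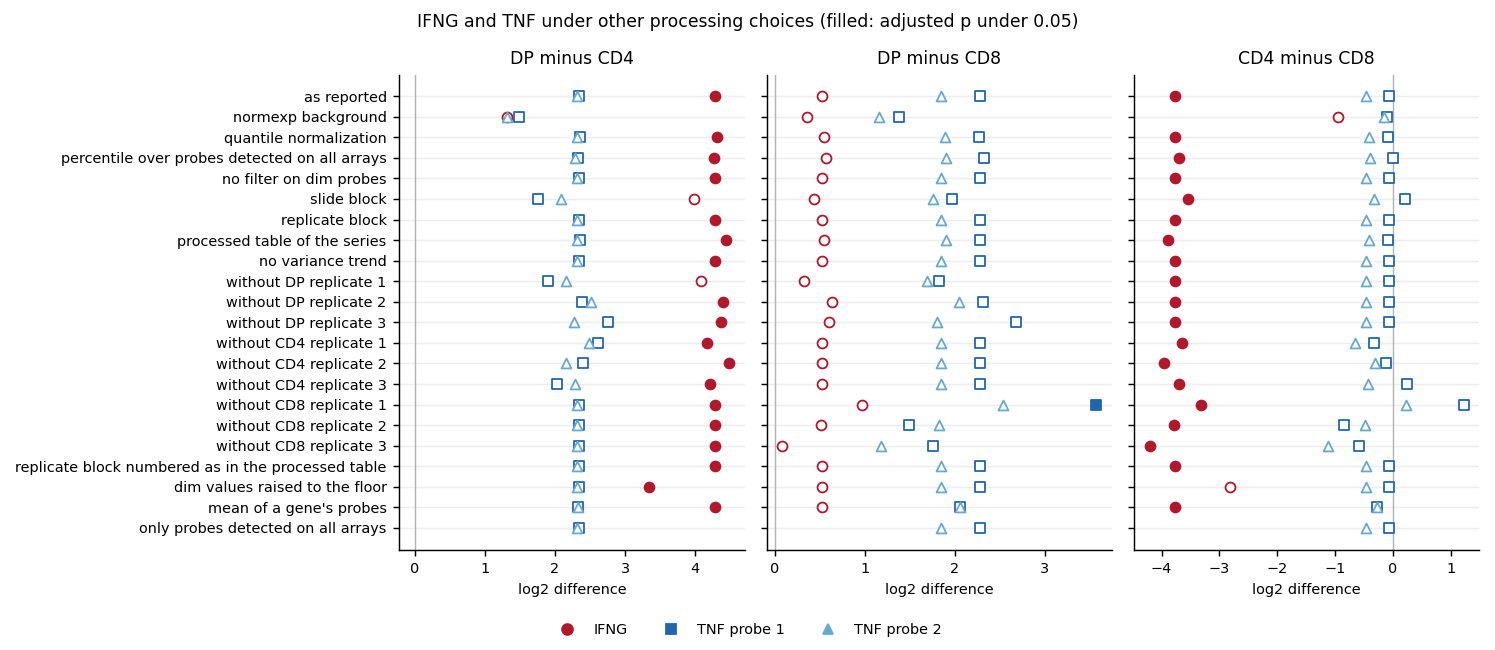
Points are the log2 differences of IFNG and the 2 TNF probes (x axis, each panel with its own range) under the reported processing and each alternative (rows), with filled points at an adjusted p under 0.05. IFNG stays right of 0 in DP minus CD4 and left of 0 in CD4 minus CD8 in every row where it could be fitted, and TNF probe 1 is filled once, at 3.57 without CD8 replicate 1 in DP minus CD8.

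The pathways around these cytokines were read from lists of receptors, signal transducers, regulators and targets. In none of these 10 lists, 9 of which are drawn in the plot of pathway genes, did any tested gene pass in any of the 3 comparisons. The tested genes were 4 of 24 other T cell cytokines, 5 of 17 receptors of the member cytokines, 2 of 7 receptors that induce IFNG, 13 of 15 kinases, STAT and SMAD factors, 1 of 7 suppressors of cytokine signalling, 3 of 19 transcription factors, 6 of 15 interferon gamma targets, 5 of 13 TNF and NF-kappaB genes, 3 of 12 genes of TGF-beta release and response, and 4 of 12 genes of recent activation. Of 7 genes of cytokine mRNA decay none was named. TBX21 and EOMES, the factors that drive IFNG transcription, could not be named on the array.

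Of the receptors, IFNGR2, the signalling chain of the interferon gamma receptor, had its highest mean in the CD4 fraction, where that of IFNG was lowest. It averaged 2.08 ± 0.07 in DP and 3.69 ± 0.43 in the CD4 fraction (SD, n = 3 each), a difference of -1.61 (SE 0.41, limma adjusted p = 0.171) without overlap. In the CD8 fraction it averaged 2.11 ± 0.60, and the CD4 minus CD8 difference was 1.58 (SE 0.41, limma adjusted p = 0.206), also without overlap. Over all tested probes, 10.1% did not overlap in the first of these comparisons and 8.01% in the second. IFNGR1, the ligand-binding chain, differed by -0.03 between DP and the CD4 fraction and by -0.05 between DP and the CD8 fraction. IL2RG, the gamma chain shared by the receptors of interleukins 2 and 4, gave 1.43 for DP minus CD8 (SE 0.49, limma adjusted p = 0.467). The median of the 5 receptors was -0.03 in both DP comparisons, against -0.02 and -0.03 over all tested probes.

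Interleukin 12 and interleukin 18 are the classical inducers of interferon gamma. IL18R1, a chain of the interleukin 18 receptor, averaged 1.17 ± 0.66 in DP, -0.66 ± 0.67 in the CD4 and -1.46 ± 2.02 in the CD8 fraction (SD, n = 3 each). DP did not overlap with either, at 2.63 above the CD8 fraction (SE 0.83, limma adjusted p = 0.398) and 1.83 above the CD4 fraction (SE 0.83, limma adjusted p = 1.00). Over all tested probes, 9.79% did not overlap between DP and the CD8 fraction and 10.1% between DP and the CD4 fraction. IL18R1 was well above background on 2 of the 3 CD8 arrays, so its CD8 mean includes a value that was not. IL12RB1, of the interleukin 12 receptor, gave 1.00 and 0.48 with overlapping arrays. IL18 itself was named but did not meet the filter.

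Of the transcription factors, GATA3, the driver of type 2 cytokines, averaged 3.00 ± 0.56 in DP, 2.62 ± 0.35 in the CD4 and 0.63 ± 1.54 in the CD8 fraction (SD, n = 3 each). The DP minus CD8 difference was 2.37 (SE 0.64, limma adjusted p = 0.226) and the CD4 minus CD8 difference 1.99 (SE 0.64, limma adjusted p = 0.519), both without overlap. Over all tested probes, 9.79% and 8.01% did not overlap in these comparisons. NFATC2, which carries the calcium signal to cytokine promoters, gave 0.79 for DP minus CD4 (SE 0.47, limma adjusted p = 1.00). FOXP3, the factor of regulatory T cells, did not meet the filter.

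Among the targets of interferon gamma, GBP1, a guanylate-binding protein, was the one nearest to passing. It averaged 4.24 ± 0.32 in DP, 2.74 ± 0.60 in the CD4 and 4.05 ± 0.41 in the CD8 fraction (SD, n = 3 each), with 1.50 for DP minus CD4 (SE 0.40, limma adjusted p = 0.219) and -1.30 for CD4 minus CD8 (SE 0.40, limma adjusted p = 0.467), neither with overlap. Over all tested probes, 10.1% did not overlap between DP and the CD4 fraction and 8.01% between the CD4 and CD8 fractions. The order of the GBP1 means across the fractions was that of IFNG, which was not so for every target. For CD4 minus CD8, 2 of the 6 tested targets were positive and 4 negative, at a median of -0.12. TAP1 averaged -0.26 in DP, -0.11 in the CD4 and -1.71 in the CD8 fraction. The chemokines CXCL9, CXCL10 and CXCL11 did not meet the filter. The 6 tested targets had a median of 0.49 for DP minus CD4 and 0.37 for DP minus CD8, with 4 and 6 of the 6 positive, and TAP1, the peptide transporter, gave 1.45 for DP minus CD8 (SE 0.76, limma adjusted p = 0.847). TAP1 was well above background on only 1 CD8 array.

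The 5 tested genes of TNF signalling and NF-kappaB were all positive in both DP comparisons, which share the DP arrays, and none passed. Their medians were 0.51 and 0.54, against -0.02 and -0.03 over all tested probes. With the slide block the direction was not common to all, as ADAM17 gave -0.15 for DP minus CD4. TNFAIP3, the feedback inhibitor A20, averaged 5.74 ± 0.26 in DP and 4.47 ± 0.86 in the CD8 fraction (SD, n = 3 each), a difference of 1.27 (SE 0.42, limma adjusted p = 0.446), and NFKBIA, the inhibitor of NF-kappaB, gave 0.69 for CD4 minus CD8 (SE 0.37, limma adjusted p = 1.00). SOCS2, an inhibitor of cytokine receptor signalling, gave 1.75 for DP minus CD4 (SE 0.66, limma adjusted p = 0.656) and 1.32 for DP minus CD8 (SE 0.66, limma adjusted p = 0.820). Its probe was well above background on 3 DP arrays but on only 1 CD4 and 1 CD8 array. It entered the tests through DP alone, so the filter itself favoured these differences. SMAD7, the inhibitor of TGF-beta signalling, gave 1.36 for DP minus CD4 (SE 0.54, limma adjusted p = 0.773), and STAT5A, which carries the interleukin 2 signal, 1.42 for DP minus CD8 (SE 0.54, limma adjusted p = 0.604).

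Genes of recent activation gave no common direction, with 1 of 4 positive for DP minus CD4 (median -0.31) and 2 of 4 for DP minus CD8 (median -0.18). CD69, the early activation antigen, averaged -0.91 ± 2.20 in DP, 0.53 ± 1.49 in the CD4 and 0.74 ± 1.20 in the CD8 fraction (SD, n = 3 each), and DP minus CD4 was -1.44 (SE 1.02, limma adjusted p = 1.00). FOS, an immediate early factor, gave 1.41 for DP minus CD8 (SE 0.66, limma adjusted p = 0.778).

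**Figure D4:**
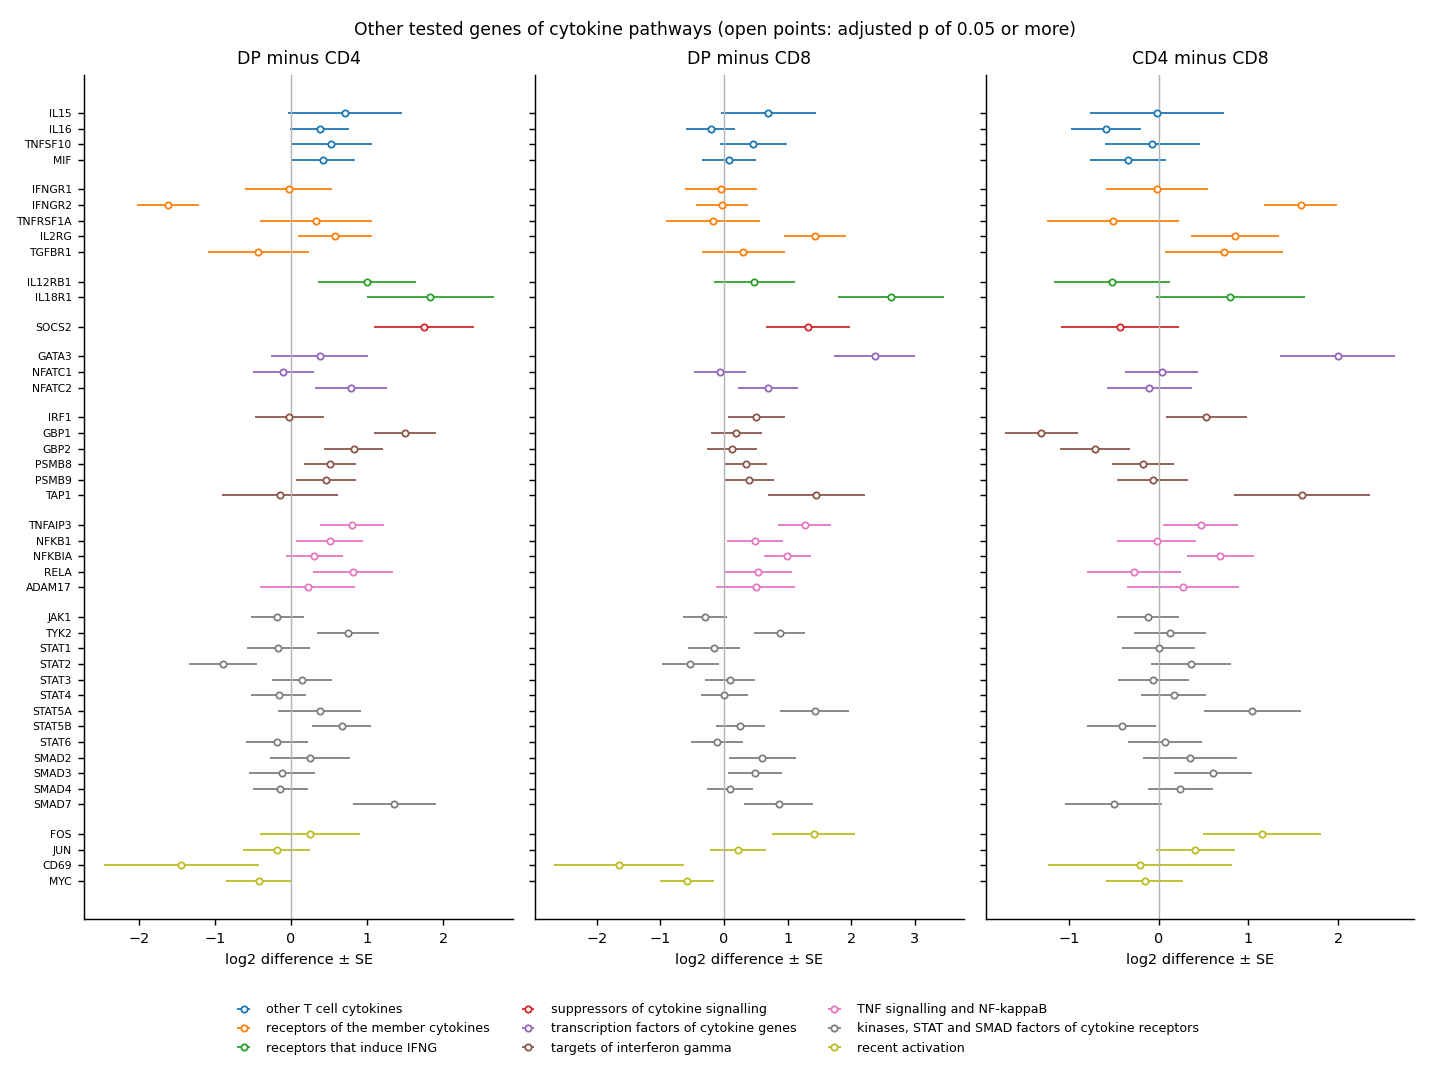
Points are the log2 differences (x axis, with bars of 1 SE, each panel with its own range) of the tested genes of 9 lists of cytokine pathways, coloured by list, in the 3 comparisons. All points are open, since none passed; IFNGR2 stands lowest in DP minus CD4 at -1.61, and IL18R1 and GATA3 stand highest in DP minus CD8 at 2.63 and 2.37.

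Genes were then ranked by how closely their levels followed IFNG over the 9 arrays, among 1502 other named genes. The 5 with the highest Pearson r were LGALS1 (0.96), ADGRG1 (0.94), KLRK1 (0.94), DMD (0.93) and RDX (0.93). LGALS1 encodes galectin 1, ADGRG1 the adhesion receptor GPR56, KLRK1 the receptor NKG2D, DMD dystrophin and RDX the membrane linker radixin. As with IFNG, all 5 were lower on each CD4 array than on each DP and CD8 array. KLRK1 was highest on CD8 array 1, at 4.31, and ADGRG1 on CD8 array 2, at 6.41, whereas IFNG, LGALS1, DMD and RDX were highest on DP array 1. These r values describe arrays that share fractions and slides, and they carry no test. They include CD4 values not well above background for IFNG, KLRK1 and DMD on arrays 2 and 3 and for LGALS1 and ADGRG1 on array 2, and a DMD value of that kind on CD8 array 3.

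**Figure D5:**
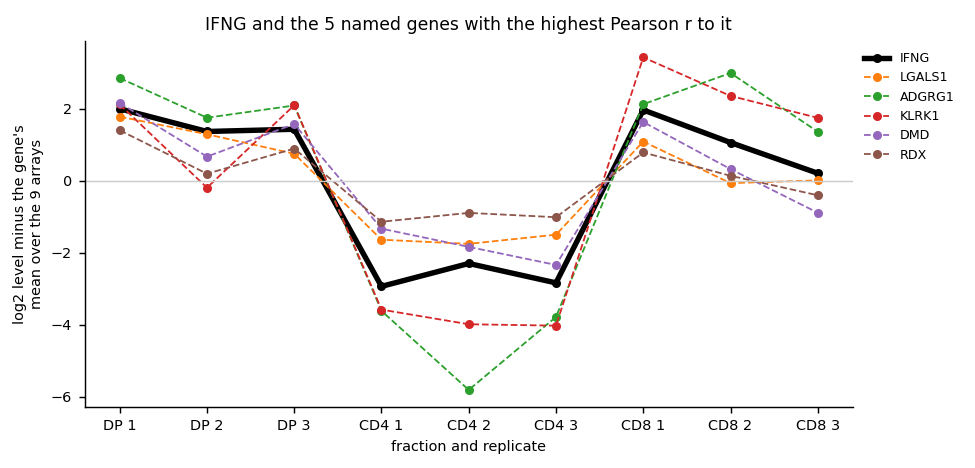
Lines join the log2 level of each gene minus its own mean over the 9 arrays (y axis) for IFNG (thick black) and the 5 named genes with the highest Pearson r to it, by array (x axis). All 6 lines lie below 0 on the 3 CD4 arrays and above 0 on CD8 array 1 and on DP arrays 1 and 3. On DP array 2 the line of KLRK1 lies just below 0, at -0.19, and the other 5 lie above it.

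Markers of other blood cells were read beside these results. Of the 4 named natural killer cell markers, KLRK1 was itself higher in DP than in the CD4 fraction (5.21, limma adjusted p = 0.00589), and 1 of the 3 CD4 arrays detected it. With the slide block the difference was 4.86 and did not pass (limma adjusted p = 0.120). FCGR3A passed in that comparison by 1 of its 3 probes, and its brightest probe differed by 2.81 (SE 0.54, limma adjusted p = 0.0509). TYROBP, also tested, differed there by 0.07 (SE 0.72) and did not pass. The summed level of the list, in multiples of the 75th percentile, was 41.5 to 103 in DP, against 4.89 to 12.8 in the CD4 and 26.7 to 69.9 in the CD8 fraction. FCGR3A was its largest part, at log2 means of 5.87 in DP, 3.06 in the CD4 and 5.14 in the CD8 fraction. In the same order KLRK1 averaged 2.22, -2.98 and 3.39, and TYROBP -1.25, -1.31 and -0.87. NCR1, a natural killer cell receptor, was below detection on all arrays. The summed level, like IFNG, had its lowest values in the CD4 fraction, and its part in the IFNG difference was not tested. Of the 4 named B cell markers, CD79A was lower in DP than in CD8 cells (-3.20, limma adjusted p = 0.0452, and 0.0854 with the slide block), and the summed level was 0.48 to 2.94 in DP, 1.11 to 2.37 in the CD4 and 5.62 to 12.5 in the CD8 fraction, with BLNK below detection on all arrays. The 5 named monocyte and granulocyte markers summed to 0.66 to 2.58 in DP, 0.90 to 1.72 in the CD4 and 0.83 to 3.13 in the CD8 fraction, with CD163, S100A8 and S100A9 below detection on all arrays. Markers of gamma delta T cells and of red cells could not be named.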

How the data were processed

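Transcripts were measured on 9 single-colour Agilent arrays, 1 per sorted sample. Per the labels, 25 ng of RNA was amplified (Ovation PicoSL WTA System V2) and labelled with Cy3. Per the file headers and the submitters' processing notes, the deposited intensity of each spot was extracted with Agilent Feature Extraction 11.0.1.1; it is background-corrected and detrended on a linear scale, and not normalized between arrays. The spot flags (well above background, saturated, outlier) are deposited as other columns of the same files. The series' table of processed values is deposited on a log2 scale by the authors, made by a program that the sources used here do not name. Each of its columns has a median of 2.60, larger values meant brighter spots, and its CD8 columns 1, 2 and 3 followed scanner files 3, 1 and 2.

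The measure was log2 of the processed signal minus each array's 75th percentile over probes that are not controls. Flagged spots (1 to 12 per array) were left out and spots of a probe averaged. Tests used limma 3.58.1 under R 4.3.3 (lmFit and eBayes with a variance trend, all 9 arrays in 1 fit, no block), two-sided, called at 0.05 after Benjamini-Hochberg adjustment across the 16024 probes tested; 95% intervals are limma's and unadjusted. The fit was tested on simulated data. Each gene of a list stands by its tested probe with the highest mean. The stated design sets DP against each other fraction, and the CD4 fraction against the CD8 fraction was added.

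Per list, the genes named are those called, or the one with the smallest p in each comparison, plus the sorting markers and the 5 genes most like each tested cytokine gene. IFNGR1, IL12RB1, ADAM17, TYROBP and the list genes named as not meeting the filter fall outside that rule and were chosen after their values were seen. The members and lists were chosen with earlier results of these data known. The scanner files hold no mean signal, so the normexp alternative used the median signal. Scanner files carry a number shared between fractions that goes with the replicate number, and the labels do not say what it marks. After removal of the fraction means, same-numbered arrays of different fractions correlated at r between -0.07 and 0.65, most of them positive. Arrays of different number gave -0.57 to 0.42, most of them negative, so the ranges overlapped. Removing a fraction's mean makes its 3 arrays offset each other, so the signs of these values are tied together. The arrays numbered 2 also shared slide 2 and those numbered 3 shared slide 3, so the values do not bear on the number alone. Whether same-numbered arrays share an animal cannot be told, and the numbers were not taken as pairs. The main fit therefore leaves out any structure that they share. With 3 against 3 arrays an exact permutation test cannot go below p = 0.1, so none was used. Alternatives were other background corrections, scalings, filters, blocks, the processed table, a fit without a variance trend and leaving out each array; 3 were added after seeing the data. Figures were drawn with Python 3.11.15 and matplotlib 3.10.9. No genome build is named in the files, and coordinates are left out. A few genes that the naming rule selects are not reported here.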

Additional observations from a re-analysis of the deposited data

How the results depend on the processing

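The counts of probes passing over the whole array, against which the cytokine probes were read, were 47 for DP minus CD4, 50 for DP minus CD8 and 70 for CD4 minus CD8, and depended on the processing; the causes were not tested unless named. In that order, normexp gave 1, 7 and 6, a test of only the 11154 probes detected on all arrays (fewer probes tested) 12, 5 and 12, and the slide block (fewer arrays in effect) 2, 2 and 38. No filter on dim probes gave 109 and 87 in the DP comparisons. The percentile over probes detected on all arrays gave 22 for DP minus CD8, and the authors' processed values gave 24. Of the alternatives added after seeing the data, flooring gave 29 for DP minus CD4 and 42 for CD4 minus CD8, and averaging a gene's probes gave 31 and 29 in the DP comparisons. Leaving out 1 array gave 2 to 55, 1 to 51 and 31 to 81; without DP replicate 1 the counts of the DP comparisons were 2 and 1, and without CD8 replicate 2 those of the CD8 comparisons were 3 and 31. A count was also lower by over 1.5 times in at least 1 comparison without each of the arrays DP 2, CD4 1, CD4 2, CD4 3, CD8 1 and CD8 3.

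The replicate block gave 144, 83 and 110, and, numbered as in the processed table, 30 and 21 in the DP comparisons, so it depends on which numbering of the CD8 arrays is right; it changed no cytokine call. Same-numbered arrays correlated between -0.07 and 0.65 after removal of the fraction means, and arrays of different number between -0.57 and 0.42. IFNG lost its DP minus CD4 call under normexp, the slide block and without DP replicate 1, and its CD4 minus CD8 call under normexp and flooring, with its direction kept. TNF probe 1 passed in DP minus CD8 without CD8 replicate 1 and under no other alternative run; all other cytokine probes stayed uncalled under all that were run. IFNG, IL5 and IL10 could not be fitted among the probes detected on all arrays. IL2 and IL4 were below detection on every array and IFNG, LTA, IL5 and IL10 on some, which limits what could be seen of them.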

Other observations

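The genes whose levels followed the other tested cytokine genes most closely over the 9 arrays were ranked by Pearson r among 1502 named genes, as a description with no test. For TNF, by its first probe, these were RAP2B (0.96), TYK2 (0.95), KEAP1 (0.94), SKIV2L (0.93) and CTSB (0.92). TYK2 encodes a kinase of cytokine receptors, including that of interleukin 12; it averaged 3.71 ± 0.40 in DP, 2.96 ± 0.18 in the CD4 and 2.84 ± 0.61 in the CD8 fraction (SD, n = 3 each), with a DP minus CD4 difference of 0.75 (SE 0.40, limma adjusted p = 1.00). KEAP1 is the sensor of oxidative stress and CTSB the lysosomal protease cathepsin B. For IL10, they included S100A14 (0.93), AP3B1 (0.89), GPATCH2L (0.88) and PIK3C3 (0.85), of which AP3B1 and PIK3C3 serve vesicle traffic.

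For TGFB1 the closest were USF3 (0.86), NCK1 (0.85), MMD (0.85), PPIA (0.85) and GNAS (0.84), and for IL5 they were HIST1H3E (0.87), FKBP1A (0.86), ST7 (0.79), ERP44 (0.73) and WFDC2 (0.73). The IL5 and IL10 values include arrays on which those genes were not well above background. Other lists had little to report: of the tested other T cell cytokines, IL15 gave 0.70 for DP minus CD8 (SE 0.75), TNFSF10, the death ligand TRAIL, 0.53 for DP minus CD4 (SE 0.53) and IL16, a chemoattractant of CD4 cells, -0.59 for CD4 minus CD8 (SE 0.39), each with limma adjusted p = 1.00. In TGF-beta release and response, ITGB8, an integrin chain that frees latent TGF-beta, gave 0.96 for DP minus CD8 (SE 0.88, limma adjusted p = 1.00). ITGB8 and IL15 were each well above background on only 1 CD8 array.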
